A study of Rattus norvegicus with 12 samples.

Results

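The levels of 10 sarcomere, calcium-handling and hormone genes that mark cardiomyocytes, some of them atrial myocytes in particular, were followed in cultures of rat atrial fibroblasts. They were Myh6, Myl7, Myl4, Ttn, Actc1, Tnnt2, Tnni3, Ryr2, Pln and Nppa. These 10 genes were selected by symbol as known cardiomyocyte markers from the 22850 features of the tables of read counts and FPKM values. All 10 had reads in all 12 libraries and all 10 passed the filter on low counts in every comparison. A bulk RNA library sums all cells of a dish, so fewer myocytes and less of a transcript per myocyte cannot be told apart in the level of any single gene.

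The cells were primary atrial fibroblasts of newborn Sprague-Dawley rats, separated from myocytes by how quickly they stick to a dish, a step that enriches fibroblasts and leaves other cells behind. All cultures received angiotensin II (AngII, 1 μmol/L, 48 h) in medium with 2% serum, which makes AngII the shared background of every group. The AngII group received nothing more, the AngII+HNG group also received HNG (10 μmol/L, an analogue of the mitochondrial peptide humanin with glycine in place of serine) and the AngII+MOTS-c group received MOTS-c (5 μmol/L, a peptide encoded in mitochondrial DNA), each added 1 h before AngII. Each group had 4 libraries of mRNA, and a group without AngII was not analysed here, so what AngII itself did to these genes cannot be read from the values. The study's methods call the 4 libraries of a group biological replicates, without saying whether each came from a separate isolation of cells, and the p-values measure the spread between these libraries.

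In a cardiomyocyte, Myh6 encodes the fast alpha myosin heavy chain that pulls on actin, Myl7 and Myl4 encode the atrial regulatory and essential light chains of that myosin, and titin (Ttn) is the elastic filament that spans from the Z disc to the M line. Cardiac actin (Actc1) forms the thin filament, on which cardiac troponin T (Tnnt2) and cardiac troponin I (Tnni3) make contraction depend on calcium. Ryr2 releases calcium from the sarcoplasmic reticulum, phospholamban (Pln) restrains the pump that takes it back, and Nppa encodes atrial natriuretic peptide, a hormone stored and released by atrial myocytes. In the newborn rodent heart the slow skeletal troponin I (Tnni1) gives way to Tnni3, and in its ventricles Myh6 takes the place of the beta chain Myh7.

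The start regions of 3 of the genes are printed because they stand for the thin filament member with the largest change, the member with the highest level per transcript length (FPKM) and the member with a CArG box. RefSeq on the GRCr8 build gave a start region (from 250 bases before to 50 after the start) for 10 of the 10 genes, with Tnnt2 represented by 2 starts. Capitals mark GATAA in either strand (TTATC when read on the other), the core of a GATA factor site, in Tnni3 and Nppa, and the CArG box, the core of a serum response factor site, in Actc1.
Tnni3, chr1:78342321-78342620, plus strand: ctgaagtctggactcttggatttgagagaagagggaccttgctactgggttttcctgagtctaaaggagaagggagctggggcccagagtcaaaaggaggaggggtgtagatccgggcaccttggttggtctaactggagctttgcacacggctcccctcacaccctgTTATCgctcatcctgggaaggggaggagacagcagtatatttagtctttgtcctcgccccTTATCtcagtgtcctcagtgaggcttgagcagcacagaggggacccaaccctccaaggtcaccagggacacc
Nppa, chr5:163711934-163712233, plus strand: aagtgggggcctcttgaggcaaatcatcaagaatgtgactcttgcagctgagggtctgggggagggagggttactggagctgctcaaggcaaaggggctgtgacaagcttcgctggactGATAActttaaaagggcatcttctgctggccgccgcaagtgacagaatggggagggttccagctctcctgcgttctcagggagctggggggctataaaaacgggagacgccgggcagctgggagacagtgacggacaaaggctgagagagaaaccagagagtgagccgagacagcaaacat
Actc1, chr3:121271778-121272077, minus strand: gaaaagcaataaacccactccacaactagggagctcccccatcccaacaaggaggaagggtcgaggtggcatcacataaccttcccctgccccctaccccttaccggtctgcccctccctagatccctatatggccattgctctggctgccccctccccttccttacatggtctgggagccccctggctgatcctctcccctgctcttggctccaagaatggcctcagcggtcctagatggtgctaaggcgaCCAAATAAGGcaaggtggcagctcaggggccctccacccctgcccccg
The Tnni3 region held 2 GATAA matches and the Nppa region 1. Over the 10 genes, 4 (Tnnt2, Tnni3, Pln and Nppa) had at least 1 GATAA match, against 26.5% of all 33469 start regions of the same length. The CArG box was found in Actc1 alone of the 10 genes, against 1.64% of all start regions. The M-CAT core CATTCC was found in Myh6, Ttn and Tnnt2 and in 14.2% of all start regions. TATAAA was found in Myl4 and Nppa, against 14.2% of all. A MEF2 site was found in Ttn and in 3.29% of all. These matches describe the letters of the regions and say nothing of binding.

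The libraries held 27960586 to 38322354 counts, and 3 counts corresponded to 0.0783 to 0.107 CPM (the count scaled to a common library size), so none of the 10 genes was near the limit of detection. Fibroblast markers were present as the label states, with 12 of 12 markers detected in every library and a summed level of 72663 to 80267 CPM. Summed levels of the other lists were 20.8 to 25.1 CPM for Schwann cell genes, 97.6 to 115 CPM for epicardial and mesothelial genes and 19.5 to 34.8 CPM for skeletal muscle genes. The skeletal muscle regulators Myf5 and Pax7 were at 0 in all 12 libraries, and the level of Myod1 was under that of 3 counts. In each group the names of replicates 2 and 3 differ only in a suffix, and the labels do not say what their shared number marks.

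The 10 genes together took 0.619% to 0.832% of all counts, a summed level of 6179 to 8252 CPM. The transcripts of Nppa, Myh6 and Actc1 made up 73.6% to 76.2% of that sum in every library. Compared per transcript length on the FPKM scale, the order of the mean levels was Nppa, Actc1, Tnnt2, Myh6, Myl7, Myl4, Pln, Tnni3, Ryr2 and Ttn. The Nppa level averaged 2446 FPKM (range 2033 to 2817), rank 14 of 22850 features. Actc1 averaged 903 FPKM (748 to 1019, rank 54) and Tnnt2 averaged 749 FPKM (666 to 921, rank 70). The ranges of these neighbours overlapped, with Actc1 above Tnnt2 in 11 of 12 libraries, and no other neighbours in the order overlapped in their ranges.

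Further down the FPKM order, Myh6 averaged 333 FPKM (rank 181), Myl7 182 FPKM (rank 314), Myl4 127 FPKM (rank 458) and Pln 73.4 FPKM (rank 857). Tnni3 averaged 34.1 FPKM (25.6 to 47.7, rank 2074), well below its thin filament partner Tnnt2. The long transcripts of Ryr2 and Ttn were lowest per length, at 6.61 FPKM (rank 7637) and 3.35 FPKM (rank 9714). Reads of Myh6 can be shared with Myh7, and those of Actc1 with Acta1, Acta2 and other actin genes, so the levels of these members are uncertain to that extent. Myl4 overlaps Cdc27 and Pln overlaps Cep85l in the GRCr8 annotation, and no source used here says whether counting took strand into account.

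The thick filament genes and titin were compared first. Myh6 was at 2141, 1998, 1738 and 2172 CPM in AngII replicates 1 to 4, at 2098, 2285, 2048 and 2541 CPM in AngII+HNG and at 1847, 2205, 1650.3 and 2389 CPM in AngII+MOTS-c. The groups overlapped, and replicate 4 was the highest library of each group. The fitted difference was 0.16 on the log2 scale (SE 0.0755, adjusted p = 0.254) for AngII+HNG against AngII and 0.01 (SE 0.0975, adjusted p = 0.997) for AngII+MOTS-c against AngII. The difference with HNG was 0.09 without AngII replicate 3 and 0.10 without AngII+HNG replicate 4. Neither the HNG nor the MOTS-c difference passed the threshold of 0.05 on the p adjusted over all genes tested. The HNG difference passed in 1 of 19 alternatives (adjusted p 0.0491 to 0.530), the edgeR fit with the replicate number as a block.

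Ttn was at 345, 319, 299.8 and 373 CPM in AngII, at 379, 385, 361 and 427 CPM in AngII+HNG and at 377, 423, 328 and 444 CPM in AngII+MOTS-c. In each peptide group 3 of the 4 libraries lay above the highest AngII library, and the remaining library of each lay inside the AngII range. The log2 difference from AngII was 0.22 (SE 0.0663, 95% interval 0.08 to 0.36, adjusted p = 0.0779) with HNG and 0.23 (SE 0.0828, 0.06 to 0.41, adjusted p = 0.924) with MOTS-c. Titin thus missed the threshold in both, and AngII+HNG differed from AngII+MOTS-c by -0.02 (SE 0.0815, adjusted p = 0.930). The first of these calls depended on the processing, since Ttn passed in 6 of 19 alternatives (adjusted p 0.00397 to 0.208).

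The atrial light chains Myl7 and Myl4 had their lowest means in AngII+MOTS-c. Myl7 was at 142, 151, 133 and 147 CPM in AngII, at 124, 154, 152 and 159 CPM in AngII+HNG and at 123, 135, 109 and 153 CPM in AngII+MOTS-c. Myl4 was at 121, 121, 109.7 and 130.0 CPM in AngII, at 106, 128, 117 and 122 CPM in AngII+HNG and at 99.6, 119, 93.4 and 109 CPM in AngII+MOTS-c. All groups overlapped for both genes. With MOTS-c against AngII the log2 difference was -0.14 (SE 0.0785, adjusted p = 0.924) for Myl7 and -0.19 (SE 0.0660, unadjusted p = 0.0124, adjusted p = 0.924) for Myl4. The Myl7 difference was -0.06 without AngII+MOTS-c replicate 3 and -0.22 without replicate 4 of that group. The length implied by the ratio of count to FPKM varied 1.38-fold between libraries for Myl7, from 606 to 839 bases, and 1.11-fold for Myl4, while the median over the 7477 genes that averaged 20 CPM or more was 1.01. On the FPKM scale the Myl7 difference with MOTS-c was 0.0029 on the log2 scale, so its direction was not the same on both scales.

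**Figure D1:**
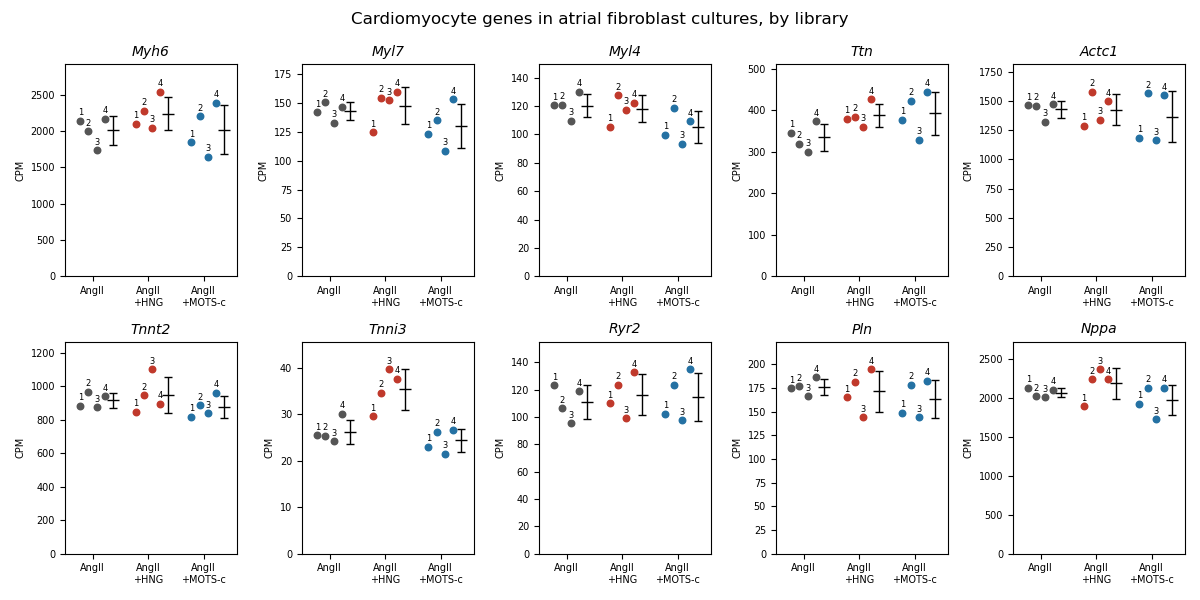
Level of each of the 10 genes in CPM (vertical axes, starting at 0) in the 4 libraries of each group, with the replicate number above each point and the mean ± SD (n = 4) as a black bar. The groups overlap in every panel except for Tnni3, where all 4 AngII+HNG libraries (29.5 to 39.7 CPM) lie above all 4 AngII+MOTS-c libraries (21.5 to 26.7 CPM).

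Of the 10 genes, 1 passed the threshold, the thin filament gene Tnni3. That single call stands beside 5.98% of all genes called with HNG against AngII and 4.41% between the peptides. Tnni3 was at 25.5, 25.4, 24.2 and 30.1 CPM in AngII, at 29.5, 34.6, 39.7 and 37.6 CPM in AngII+HNG and at 23.1, 26.3, 21.5 and 26.7 CPM in AngII+MOTS-c. The means were 26.3 ± 2.59, 35.4 ± 4.40 and 24.4 ± 2.50 CPM (SD, n = 4). Every AngII+HNG library lay above every AngII+MOTS-c library, and 3 of the 4 lay above the highest AngII library, with AngII+HNG replicate 1 just inside the AngII range.

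Tnni3 rose with HNG against AngII by 0.43 on the log2 scale (SE 0.0905, 95% interval 0.24 to 0.63), a rise of 35.1% with an adjusted p of 0.0131 in edgeR's quasi-likelihood test. Against AngII+MOTS-c it was higher by 0.54 (SE 0.0925, 0.34 to 0.74, adjusted p = 0.00597). With MOTS-c against AngII the difference was -0.10 (SE 0.0813, adjusted p = 0.935). The difference from AngII was positive under all 19 alternatives (0.37 to 0.51), and its adjusted p ranged from 0.000162 to 0.0664. It passed in 14 of the 19 and missed at 0.0589, 0.0541 and 0.0519 without AngII replicate 1, 2 or 3 in turn. The call was also lost with replicates 2 and 3 summed (log2 difference 0.39, adjusted p = 0.0521) and with limma on log2(FPKM + 0.1) (0.45, adjusted p = 0.0664). The HNG against MOTS-c difference passed in 18 of 19 alternatives.

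The other thin filament members of the 10, Actc1 and Tnnt2, did not pass in any comparison. Actc1 was at 1465, 1457, 1322 and 1472 CPM in AngII, at 1289.6, 1577, 1338 and 1498 CPM in AngII+HNG and at 1183, 1565, 1165 and 1549 CPM in AngII+MOTS-c. The MOTS-c libraries fell at the lower and the upper end of the whole range, with nothing between 1183 and 1549 CPM. Tnnt2 was at 884, 969, 875 and 941 CPM in AngII, at 849, 946, 1101 and 894 CPM in AngII+HNG and at 818, 886, 839 and 962 CPM in AngII+MOTS-c. The highest Tnnt2 value was in AngII+HNG replicate 3, the library that was also highest for Tnni3. Against AngII the log2 difference with HNG was 0.05 (SE 0.0692, 95% interval -0.10 to 0.20) for Tnnt2 and 0.0017 (95% interval -0.13 to 0.13) for Actc1.

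For the calcium-handling genes the groups lay on top of each other. Ryr2 was at 123, 106, 95.2 and 119 CPM in AngII, at 110.0, 124, 99.1 and 133 CPM in AngII+HNG and at 103, 123, 97.5 and 135 CPM in AngII+MOTS-c. Pln was at 174, 177, 166 and 186 CPM in AngII, at 165, 181, 144 and 194 CPM in AngII+HNG and at 149, 178, 144 and 183 CPM in AngII+MOTS-c. Replicate 3 was the lowest or equal lowest of its group for both genes in every treatment. The 95% intervals of the log2 differences from AngII ran from -0.12 to 0.27 with HNG and -0.16 to 0.26 with MOTS-c for Ryr2, and from -0.20 to 0.13 and -0.25 to 0.04 for Pln.

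The hormone gene Nppa was at 2137, 2027, 2012 and 2112 CPM in AngII, at 1899, 2246, 2369.7 and 2246 CPM in AngII+HNG and at 1931, 2131, 1731 and 2137 CPM in AngII+MOTS-c. The AngII libraries lay within a narrow band, and the AngII+HNG group held values on both sides of it. The log2 difference from AngII was 0.08 (SE 0.0581, adjusted p = 0.465) with HNG and -0.06 (SE 0.0557, adjusted p = 0.939) with MOTS-c, and AngII+HNG exceeded AngII+MOTS-c by 0.14 (SE 0.0750, adjusted p = 0.314). The difference with HNG was 0.15 (adjusted p = 0.0512) without AngII+HNG replicate 1 and 0.04 without replicate 3 of that group. That with MOTS-c ranged from -0.10 without AngII+MOTS-c replicate 4 to -0.0032 without AngII+MOTS-c replicate 3.

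Across the 10 genes, the median log2 difference of AngII+HNG from AngII was 0.06, beside 0.0043 over all 14524 genes tested. Of the 10, 1 was called, against 5.98% of all genes tested (3.4% higher and 2.58% lower with HNG), and 2 of 10 had an unadjusted p under 0.05, against 20.3% of all genes. The difference was positive for 8 of the 10 and for 51.3% of all genes. In none of the 10 were the groups apart, against 13.7% of all genes. For AngII+MOTS-c against AngII the median was -0.06 beside -0.00076 over 14488 genes, and 0 of 10 genes were called by edgeR against 0.0069% of all genes, with 2 of 10 at an unadjusted p under 0.05 against 5.05% of all. The difference was negative for 7 of the 10 and positive for 3, beside 49.6% positive over all genes. DESeq2 also called 0 of the 10, and the groups were apart in 0 of 10 against 3.41% of all.

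For AngII+HNG against AngII+MOTS-c the median was 0.13 beside 0.0023 over 14448 genes, with 9 of 10 differences positive beside 50.6% over all genes, and 2 of 10 at an unadjusted p under 0.05 beside 19.3%. Of the 10, 1 was called, against 4.41% of all genes (2.64% higher and 1.77% lower in AngII+HNG), and the groups were apart in 1 of 10, Tnni3, against 12.6% of all. A single call among 10 genes is close to what these background shares give. The comparisons share groups, so their values for a gene are not independent.

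**Figure D2:**
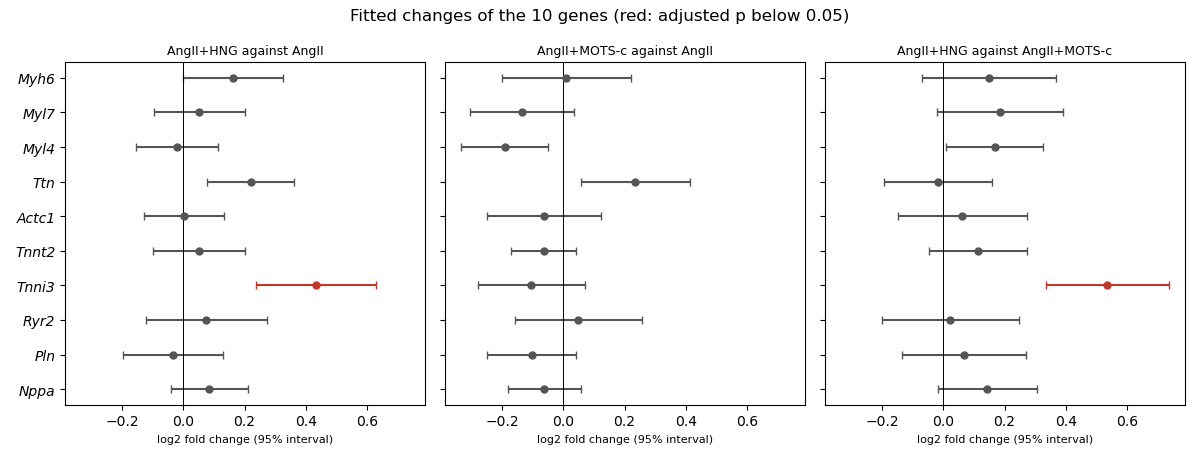
Log2 fold change of each of the 10 genes (horizontal axis, points with 95% intervals from edgeR) in the 3 comparisons, n = 4 libraries per group. Tnni3, in red, is the member with an adjusted p below 0.05, at 0.43 against AngII and 0.54 against AngII+MOTS-c, and no member passes between AngII+MOTS-c and AngII.

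Levels of other cell type lists moved with the HNG group, in which Tnni3 was higher. The summed level of 12 macrophage genes, 11 of them detected in every library, was 326 to 426 CPM in AngII+HNG, against 239 to 286 CPM in AngII and 236 to 284 CPM in AngII+MOTS-c. The summed level of 10 endothelial genes, all detected, was 98.3 to 108 CPM in AngII+HNG against 77.0 to 86.3 and 81.5 to 86.9 CPM. The 16 smooth muscle and pericyte genes summed to 8333 to 8679 CPM in AngII+HNG, below the 10071 to 10264 CPM of AngII and the 9457 to 10211 CPM of AngII+MOTS-c. They include Acta2, whose product alpha-SMA the paper uses as a marker of fibroblast activation, so the sum is not that of smooth muscle cells alone. Acta2 averaged 4155 CPM in AngII, 3384 in AngII+HNG and 4065 in AngII+MOTS-c. The part of these lists in the Tnni3 result was not tested. The sum of the 10 cardiomyocyte genes itself overlapped between groups, at 6775 to 7680.3 CPM in AngII, 7049.6 to 8252 CPM in AngII+HNG and 6179 to 8087 CPM in AngII+MOTS-c.

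The 10 genes varied together from library to library. AngII replicate 3 was the lowest library of its group for 10 of 10 genes, AngII+MOTS-c replicate 3 for 9 and AngII+HNG replicate 1 for 6. At the other end, AngII+MOTS-c replicate 4 was the highest of its group for 8 genes, AngII replicate 4 for 6 and AngII+HNG replicate 4 for 5. Within groups the SD of log2 CPM was 0.118 (Tnnt2 and Nppa) to 0.193 (Ryr2), against a median of 0.0729 over the 7477 genes that averaged 20 CPM or more. All 45 pairs of the genes were positively correlated over the 12 libraries, with a median Pearson r of 0.66. After each group's mean was taken out, 44 of 45 pairs were still positive and the median was 0.73. The pairs share libraries, and these values are a description.

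**Figure D3:**
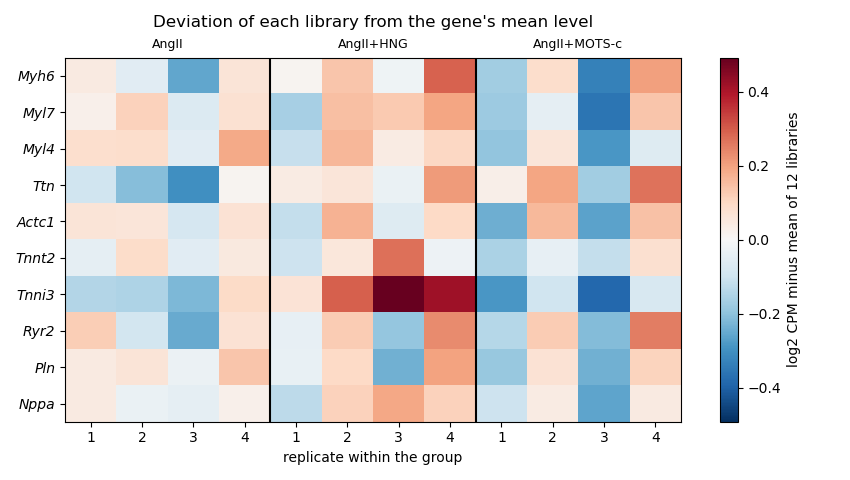
Level of each gene (rows) in each library (columns, replicates 1 to 4 of each group) as log2 CPM minus the mean of that gene over the 12 libraries, red above and blue below. The columns of AngII replicate 3, AngII+MOTS-c replicate 1 and AngII+MOTS-c replicate 3 are blue for all or nearly all genes, and the Tnni3 row is red in all 4 AngII+HNG libraries.

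The genes outside the 10 whose log2 CPM was most like the mean of the 10 over the 12 libraries were Myom1, Casq2, Synm, Mybpc3 and Actn2, among 12132 genes that averaged 1 CPM or more. Pearson's r was 0.954 for Myom1, an M line protein, and 0.943 for Casq2, the calcium-binding protein of the sarcoplasmic reticulum. It was 0.931 for Synm, an intermediate filament protein, 0.931 for Mybpc3, cardiac myosin-binding protein C, and 0.926 for Actn2, the actin cross-linker of the Z disc. Spearman's rho was 0.797 to 0.923 for these 5, and r without the 2 libraries farthest from the median was 0.846 to 0.902. Of 59 genes of a wider cardiomyocyte list among the candidates, 35 had an r over 0.5, and their median r was 0.575, beside a median of -0.0072 over all candidates. All these points share library and depth.

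Ratios compare genes of the same apparatus within a library. The ratio of Myh6 to Myh7 in FPKM was 2.71, 2.57, 2.50 and 2.88 in AngII, 3.32, 3.13, 3.20 and 3.52 in AngII+HNG and 2.69, 2.56, 2.54 and 2.90 in AngII+MOTS-c. Every AngII+HNG library lay above every library of both other groups. The ratio was 1.24-fold that of AngII (log2 difference 0.31, SE 0.0583), with an exact two-sided permutation p of 0.0286, the smallest that 4 against 4 libraries allow, and 0.143 after adjustment over the 30 ratio tests. As a share of the Myh6 and Myh7 transcripts, Myh6 made up 71.4% to 74.2% in AngII, 75.8% to 77.9% in AngII+HNG and 71.7% to 74.4% in AngII+MOTS-c. The counterpart Myh7 alone was at 789, 777, 703 and 757 CPM in AngII and at 629.5, 728, 639.9 and 721 CPM in AngII+HNG (log2 difference -0.15, SE 0.0548, adjusted p = 0.142).

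The ratio of Tnni3 to Tnni1 in FPKM was 0.504, 0.481, 0.544 and 0.586 in AngII, 0.692, 0.622, 0.749 and 0.778 in AngII+HNG and 0.581, 0.527, 0.491 and 0.587 in AngII+MOTS-c. Again the AngII+HNG libraries lay above all others. The ratio was 1.34-fold that of AngII (log2 difference 0.42, SE 0.0949, exact permutation p = 0.0286, adjusted 0.143). Tnni3 made up 32.5% to 36.9% of the Tnni3 and Tnni1 transcripts in AngII, 38.3% to 43.7% in AngII+HNG and 33.0% to 37.0% in AngII+MOTS-c. Tnni1 itself was at 53.3 to 63.8 CPM in AngII and 54.3 to 67.3 CPM in AngII+HNG (log2 difference 0.04, SE 0.0693, adjusted p = 0.830), so the groups overlapped for the slow isoform.

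The ratio of Myh6 to Ttn was lower with MOTS-c. It was 103 to 111 in AngII, 97.8 to 105 in AngII+HNG and 86.8 to 95.2 in AngII+MOTS-c, so the MOTS-c libraries lay below all others. The log2 difference of AngII+MOTS-c from AngII was -0.23 (SE 0.0413, exact permutation p = 0.0286, adjusted 0.143). None of the 30 ratio tests, which were added after the levels had been seen, passed after adjustment, and with 4 libraries a group the smallest adjusted p reached was 0.143. The exact p cannot fall below 0.0286 here, so no ratio could pass unless many of the 30 tests reached that value. The adjusted p therefore cannot decide whether a ratio differed. The groups overlapped in all 3 comparisons for the other ratios tested, namely Myl7 to Myl2, Myl4 to Myl3, Actc1 to Acta1, Nppa to Nppb, Tnnt2 to Tnnc1, Pln to Atp2a2 and Ryr2 to Casq2. Over all libraries Actc1 was 47.4 to 63.2 times Acta1, the skeletal actin, and Nppa was 9.04 to 11.9 times Nppb, the gene of the B-type peptide.

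**Figure D4:**
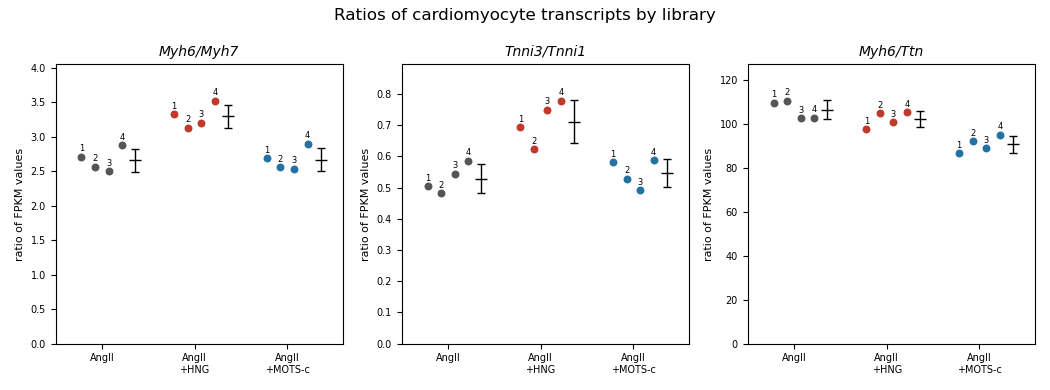
Ratio of FPKM values (vertical axes, starting at 0) of Myh6 to Myh7, Tnni3 to Tnni1 and Myh6 to Ttn in the 4 libraries of each group, with the replicate number above each point and the mean ± SD (n = 4) as a black bar. The AngII+HNG libraries stand above the others in the first and second panels (3.13 to 3.52 and 0.622 to 0.778), and the AngII+MOTS-c libraries stand below the others in the last (86.8 to 95.2).

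A wider list of 62 other cardiomyocyte genes gave context, of which 61 were in the tables and 60 were tested. The list summed to 7409.6 to 8590.0 CPM. Its highest genes per length were Tpm1 at a mean of 684 FPKM, Ankrd1 at 528, Pam at 345, Nppb at 239.6, Tnnc1 at 238, Atp2a2 at 198, Myl2 at 174 and Myl3 at 145. Of these, at least Tpm1 (tropomyosin), Ankrd1 (a stretch-responsive nuclear and sarcomere protein) and Pam (the peptide amidating enzyme abundant in atrial granules) are also made by cells other than myocytes. Myl2 and Myl3 are ventricular light chains, and the ratio of Myl7 to Myl2 was 0.891 to 1.38 and that of Myl4 to Myl3 0.773 to 1.02 over the 12 libraries. The highest Myl7 to Myl2 ratios, 1.38 in AngII+MOTS-c replicate 3 and 1.25 in AngII+HNG replicate 3, fell in the libraries with the shortest implied Myl7 length (606 and 657 bases). The upper end of that range is uncertain for this reason. The atrial and ventricular light chain transcripts were thus at like levels per length in these cultures labelled atrial.

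With HNG against AngII, 2 of the 60 genes rose and 3 fell, and 55 did not pass, beside 5.98% of all genes called (3.4% higher and 2.58% lower), so the count is near the background. An unadjusted p under 0.05 was found for 19 of the 60 (31.7%), beside 20.3% of all genes. The median log2 difference was 0.0087 beside 0.0043 over all genes tested. Gja5, the atrial and arterial connexin 40, was at 13.9, 13.1, 15.4 and 13.8 CPM in AngII and at 21.8, 17.8, 22.1 and 17.6 CPM in AngII+HNG (log2 difference 0.50, SE 0.0895, adjusted p = 0.00603). It passed in all 19 alternatives, and endothelial cells, whose summed markers were also higher in AngII+HNG, make it too, though their part in the Gja5 result was not tested. Sbk2, a kinase gene known from atrial myocytes, was at 0.481 to 0.669 CPM in AngII and rose to 0.814 to 1.27 CPM in AngII+HNG (1.04, SE 0.236, adjusted p = 0.0206). These levels rest on few reads, 18 to 22 a library in AngII and 29 to 43 in AngII+HNG. Sbk2 passed in 14 of 19 alternatives (adjusted p 0.0113 to 0.0764), and its log2 difference was 0.26 with limma on log2(FPKM + 1), a scale that understates the change of low genes.

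The genes that fell with HNG were Tpm1 (-0.19, SE 0.0412, adjusted p = 0.0179), Nexn (-0.25, SE 0.0533, adjusted p = 0.0146) and Jph2 (-0.20, SE 0.0389, adjusted p = 0.00914). Tpm1 was at 1148 to 1239.8 CPM in AngII and 975 to 1082 CPM in AngII+HNG, Nexn, an actin-binding Z disc protein, at 159.9 to 173 and 124 to 148 CPM, and Jph2, which ties the sarcoplasmic reticulum to the cell membrane, at 168 to 183 and 147 to 155 CPM. On the FPKM scale with limma, Tpm1 did not pass at the pseudocount 1 or 0.1 (adjusted p = 0.160 and 0.211), nor did Nexn (0.0638 and 0.0996), and Jph2 did not pass at 0.1 (0.0780). Over the 19 alternatives Tpm1 passed in 15, Nexn in 16 and Jph2 in 18. Tropomyosin and nexilin are also smooth muscle proteins, and the smooth muscle and pericyte sum was lower in the same libraries. That sum includes Acta2, whose product alpha-SMA the paper uses as a marker of fibroblast activation. It therefore does not measure smooth muscle cells and pericytes alone. The part of smooth muscle cells, pericytes or activated fibroblasts in these values was not tested. Over 19 alternatives 2 to 8 genes of the list were called, with 2 left without AngII replicate 1 (Gja5 and Jph2) and 3 without AngII replicate 2 (Gja5, Jph2 and Nexn).

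With MOTS-c against AngII, 0 of the 60 genes passed in edgeR's test or in DESeq2, beside 0.0069% of all genes. An unadjusted p under 0.05 was found for 6 of the 60, beside 5.05% of all genes, and the median was -0.03. Among these was Jph2, at 154.5 to 163.4 CPM in AngII+MOTS-c and thus below every AngII library, as with HNG. Its log2 difference from AngII with MOTS-c was -0.12 (SE 0.0340, unadjusted p = 0.00296 and adjusted p = 0.924 in edgeR's test). Groups were apart in 3.41% of all genes there. Between the peptides, Nexn alone passed, lower in AngII+HNG (-0.22, SE 0.0555, adjusted p = 0.0403), and it passed in 10 of 19 alternatives. This single call of 60 stands beside 4.41% of all genes, and over the alternatives 0 to 13 genes of the list were called between the peptides. There 16 of the 60 (26.7%) had an unadjusted p under 0.05, beside 19.3% of all genes. Gja5, Sbk2, Tpm1 and Jph2, called with HNG against AngII, did not pass between the peptides (adjusted p = 0.125, 0.0960, 0.196 and 0.265 in edgeR's test). In AngII+MOTS-c Gja5 was at 12.7 to 18.6 CPM, Sbk2 at 0.582 to 0.827 CPM and Tpm1 at 1044 to 1198 CPM.

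**Figure D5:**
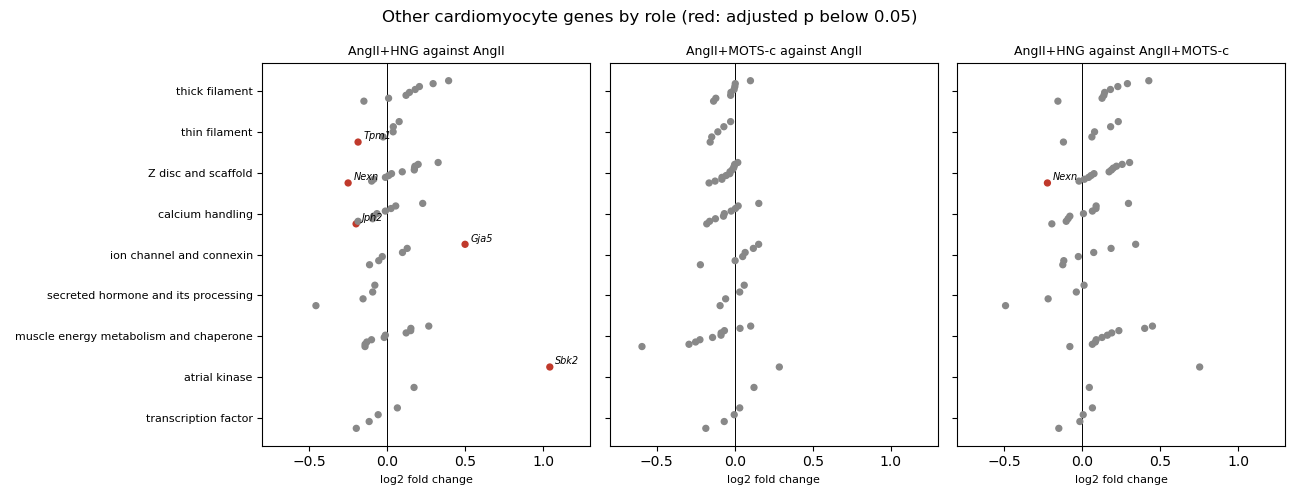
Log2 fold change (horizontal axis) of the 60 tested genes of the wider cardiomyocyte list, in rows by role, in the 3 comparisons, n = 4 libraries per group. Named red points have an adjusted p below 0.05. Against AngII they are Gja5 and Sbk2 above 0 and Tpm1, Nexn and Jph2 below 0 with HNG, none with MOTS-c, and between the peptides Nexn.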

How the data were processed

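Libraries were made from mRNA with the Hieff NGS Ultima Dual-mode kit and read as paired ends on a DNBSEQ instrument. Per the labels, the authors' tools included HISAT2, Picard 1.41 and SAMtools 0.1.18, while the genome build, counting tool and strand setting are not given in the sources used here. The authors deposited whole-number read counts per gene and FPKM values for 22850 features, and no column was left without a sample. The 10 genes and all lists were chosen with earlier results of these data known.

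Counts of the 8 libraries of each comparison were filtered (filterByExpr), TMM-scaled and tested with the edgeR 4.0.16 quasi-likelihood test, with Benjamini-Hochberg adjustment over all tested genes and a threshold of 0.05. Levels are CPM scaled by TMM over 12 libraries, and log2 CPM used a prior count of 2. FPKM served for levels between genes, ratios and limma 3.58.1 alternatives on log2(FPKM + 1) and log2(FPKM + 0.1). DESeq2 1.42.0, other scaling and filters, 1 fit of all groups, blocks, summed or left-out libraries were the other alternatives. The scripts were tested on simulated data with 200 changed genes. Libraries had 27960586 to 38322354 counts, so counting error is small beside the spread between libraries for these genes, and the limit of detection covers counting error only.

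Named were the 10 genes, 7 partner genes, the 8 wider-list genes with the highest mean FPKM, up to 8 with the smallest adjusted p under 0.05, and the 5 genes most like the 10. The ratio tests were exact two-sided permutation tests of mean log2 ratios. Cell type lists were summed as CPM. A gene of the wider list is not reported here and was left out of the list's counts and sums. Replicate numbers were not taken as pairs, because not every same-numbered pair of libraries deviated together.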

Additional observations from a re-analysis of the deposited data

Results flagged for a closer look

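Actc1 in AngII replicate 3, at 1321.52 CPM, stood apart from the other 3 AngII libraries (1457 to 1472 CPM), with a gap of 0.903 of the group's range, past Dixon's 95% critical value for 4 samples. Among the 33 groups examined for such a gap, chance alone flags about 1 in 20. The same library was the lowest of its group for all 10 genes. Its cause was not tested.

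Tnni3 differed between the peptides, each given on top of AngII, by 0.53589 on the log2 scale (AngII+HNG above AngII+MOTS-c, SE 0.0925, adjusted p = 0.00597 in edgeR's quasi-likelihood test), with all 4 AngII+HNG libraries above all 4 AngII+MOTS-c libraries. The difference was 0.475 to 0.614 over 19 alternatives.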

How the results depend on the processing

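Of 570 recomputed member changes, 517 kept their direction and side of the threshold. Tnni3 with HNG against AngII kept its direction throughout. The members called there were 2 (Tnni3 and Ttn) with DESeq2, with library-name numbers as a block and without the libraries numbered 4. They were 0 with replicates 2 and 3 summed and with limma on log2(FPKM + 0.1), and 0 to 2 when 1 library was left out. Between the peptides 0 members were called with limma on log2(FPKM + 0.1) and 1 in every fit without 1 library. For MOTS-c against AngII 0 were called throughout. Why these counts moved was not tested.

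The numbers of all genes called with HNG against AngII, 869 in the reported fit, were 577 with replicates 2 and 3 summed, 541 without the libraries numbered 4, 396 with limma on log2(FPKM + 0.1) and 431 to 932 without 1 library. For MOTS-c against AngII, 1 gene in the reported fit, they were 3 with DESeq2, 0 with all 12 libraries in 1 fit, with replicates 2 and 3 summed and without the libraries numbered 4, and 0 to 3 without 1 library. Between the peptides, 637 in the reported fit, they were 1042 with DESeq2, 975 with all 12 libraries in 1 fit, 377 without the libraries numbered 4, 417 and 255 with limma at the pseudocounts 1 and 0.1, and 322 to 625 without 1 library.

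With the replicate number as a block, members called rose to 3 with HNG against AngII (Myh6, Tnni3 and Ttn) and to 3 between the peptides (Myh6, Myl4 and Tnni3), and all genes called were 1111, 2 and 1054 in the 3 comparisons. The labels do not say what a replicate number marks. Deviations of same-numbered libraries correlated at -0.028 to 0.12 (HNG and AngII), 0.020 to 0.13 (MOTS-c and AngII) and -0.0096 to 0.25 (the peptides), and 2, 6 and 6 of 8 libraries correlated best with their own number, a hint of pairing from the data that falls short of every pair being over 0.1. The block changed no direction of a called member.

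Changes of sign occurred only in genes and 1 ratio that were not called. With HNG against AngII, Myl4 became 0.0019 without the libraries numbered 4, and Actc1 became -0.0023 with DESeq2 and with RLE factors, -0.00056 with 1 fit, -0.0016 with the replicate block, -0.00013 with the library-name block, -0.021 with replicates summed and -0.0087 without the libraries numbered 4. With MOTS-c against AngII, Myh6 became -0.042 and Ryr2 -0.0026 without the libraries numbered 4, Myl7 0.0029 with limma at either pseudocount, and Actc1 0.0089 with the library-name block. Between the peptides, Ttn became 6.6e-05 and 0.0014 with limma at the pseudocounts 1 and 0.1, and Ryr2 -0.00010 with the library-name block. Without 1 library, with HNG the ranges were -0.065 to 0.030 for Myl4, -0.049 to 0.047 for Actc1, -0.030 to 0.10 for Tnnt2, -0.10 to 0.040 for Pln and -0.014 to 0.087 for Tnni1. With MOTS-c they were -0.080 to 0.095 for Myh6, -0.13 to 0.0043 for Actc1 and -0.037 to 0.12 for Ryr2, and between the peptides -0.10 to 0.047 for Ttn, -0.012 to 0.13 for Actc1 and -0.052 to 0.11 for Ryr2. The log2 ratio of Myh6 to Myh7 with MOTS-c ranged from -0.037 to 0.042, and the other ratio differences that stood apart kept their sign on counts, without the libraries numbered 4 and without any 1 library, alternatives added after the data were seen.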
